A study of Arabidopsis thaliana with 48 samples.

Results

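Gene expression of the double mutant labelled pif4 pil5 was compared with that of the accession Col, both of them sampled in the dark 280 min after dawn. The comparison took all arrays of that minute of the day in these lines, 6 of pif4 pil5 and 6 of Col, 12 of the 48 arrays in all. At this time the hypocotyl, the seedling stem, was labelled growing in Col and not growing in pif4 pil5. Arabidopsis thaliana seedlings had spent 3 days in short days and then received cycles of 160 min of light and 320 min of dark from the dawn of day 4, on medium with 3% sucrose. Every array carried RNA of many pooled seedlings, so the p-values measure the spread between pools and not between plants. In the main test that spread also holds differences between days and array dates. The replicates of a line were days 4, 5 and 6 after germination, each sampled in 2 runs numbered in the titles. Both genotypes shared growth conditions, and the labels gave neither the alleles nor the loci of the double mutant.

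Phytochrome-interacting factors (PIFs) are basic helix-loop-helix transcription factors that accumulate in darkness and are degraded after phytochrome is activated by light. PIF4 and its close relatives are known to promote hypocotyl elongation, in part through genes of auxin synthesis and response, and PIF1, for which PIL5 is an older name, is best known for repressing seed germination and greening. The labels do not settle whether pil5 in the line's name stands for PIL5 (PIF1) or for PIF5, whose symbol in the RefSeq table is PIL6. The hypocotyl lengthens by cell expansion, in which auxin and brassinosteroid signals and enzymes that loosen the cell wall take part. Aux/IAA proteins repress auxin responses and are themselves often induced by auxin, and GH3 enzymes link auxin to amino acids.

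The targeted genes were not checked, because no probe set carried PIF4, PIL5 or PIF5 as its single gene in the naming table. Probe sets without a name may include theirs. The arrays themselves were not alike in every respect. The pif4 pil5 arrays shared 1 array date in the labels, whereas the Col arrays came from 5 dates in 2 campaigns, and only Col replicate 6 shared the date of the mutant. Col replicate 3, from day 6, had high values of light-induced genes for a dark sample, with HYH, a bZIP factor of light signalling, at 4.82 against 2.34 to 3.46 on the other Col arrays. Col replicate 4, from day 4, had the lowest correlation with the rest of its group, 0.9695, and low values of photosynthesis genes such as RCA, the activase of Rubisco, at 10.96. The log2 excess of the 3' over the 5' GAPDH probe set, a measure of RNA quality, lay between -0.34 and 0.42 in pif4 pil5, between 0.49 and 0.68 on the Col arrays of the first campaign and between -0.04 and 0.22 on those of the second. The same excess for actin lay between 2.82 and 3.21 in pif4 pil5. On the Col arrays it lay between 2.72 and 2.76 in the first campaign and between 3.08 and 3.28 in the second. The Col campaigns thus ranked the other way for actin than for GAPDH. The part of RNA quality in the results was not tested, and date was set against the results by a block and by the second campaign alone.

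Of 22746 probe sets, 138 passed an adjusted p of 0.05 (0.607%), of which 92 were lower in pif4 pil5 (0.404%) and 46 were higher (0.202%). The split between falls and rises moved with the arrays and blocks used: 337 fell and 296 rose without Col replicate 4, 329 and 313 with day and title number as blocks, and 42 and 1 with the second campaign alone. The falls were the larger changes: 34 of the 92 reached 2-fold, against 3 of the 46 rises. The median log2 change was -0.90 among the falls and 0.53 among the rises, beside 0.03 over all probe sets. The 92 falls included 48 with a single named gene, 2 with several and 42 without a name, and the 46 rises included 33 with a single gene and 13 without a name. At an unadjusted p under 0.05 stood 3274 probe sets, 14.4% of those tested.

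**Figure D1:**
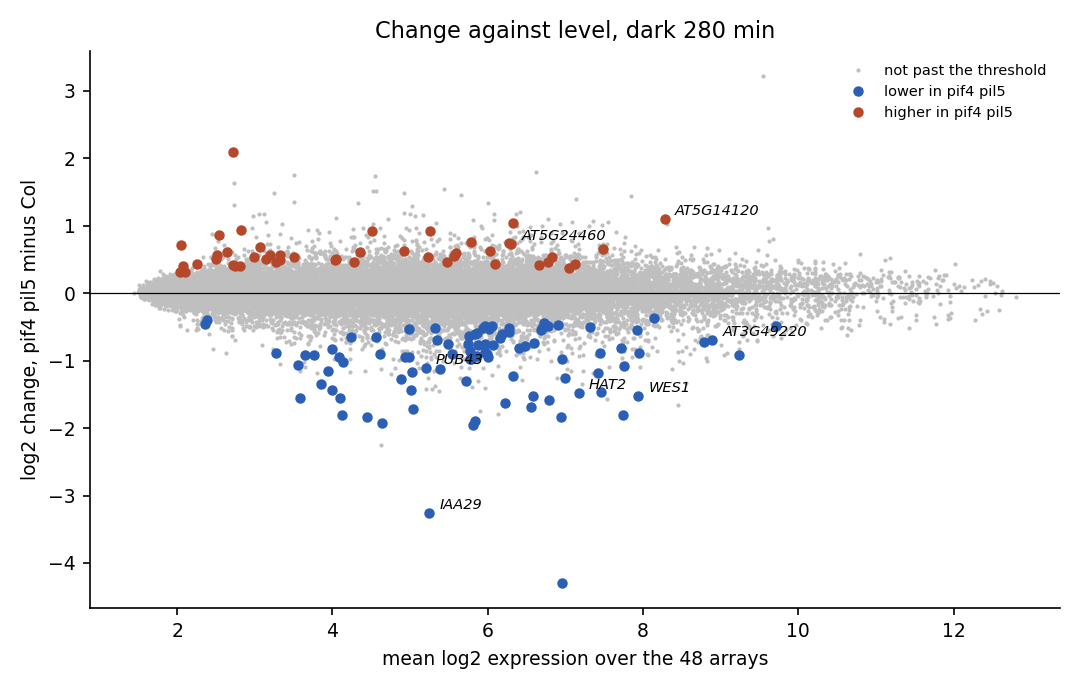
Each point is a probe set, with its mean log2 expression over the 48 arrays on the x axis and its log2 change, pif4 pil5 minus Col at dark 280 min, on the y axis. Probe sets past the threshold are coloured (92 lower, 46 higher), and the falls of IAA29 and of an unnamed probe set at -4.29 lie below all others that passed.

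The calls fell at different levels of expression. Of the 92 falls, 20 had a mean below the median level of all probe sets, 4.699, whereas 27 of the 46 rises did. All 6 mutant arrays lay below all 6 Col arrays at 44 of the 92 falls, and above them at 24 of the 46 rises. Over all probe sets, the mutant arrays lay wholly below Col at 0.444% and wholly above at 0.528%. In RNA of seedlings, fewer cells of a type and less RNA per cell cannot be told apart.

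The genes that fell furthest with a name included an early auxin gene, 2 enzymes of auxin conjugation and a homeodomain factor of the shade response. IAA29, an Aux/IAA repressor, was near the floor of the arrays in the mutant, between 2.83 and 3.29 with a median of 3.25. In Col it read 7.55, 8.12, 4.07, 4.08, 7.63 and 7.07 in replicates 1 to 6. The groups did not overlap, but Col replicates 3 and 4, the arrays that stood apart, were far below the other Col arrays. The fall was 3.26 ± 0.694 (SE) on the log2 scale (adjusted p = 0.0149), a fitted ratio of 9.56. The values carry no detection calls, so a ratio against a level this near the floor may understate the change. It passed more clearly without Col replicates 3 and 4 (adjusted p = 1.21e-04), a setting added after seeing the data. The call was lost without Col replicate 1 or 2, with an adjusted p of up to 0.0645. It was also lost when only the groups compared were fitted (adjusted p = 0.110). The SD of IAA29 was 1.85 in Col and 0.18 in the mutant.

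WES1, also called GH3.5, encodes an enzyme that conjugates auxin to amino acids. It ranged from 6.78 to 7.40 with a median of 7.14 in pif4 pil5 and from 7.86 to 9.05 with a median of 8.65 in Col. No mutant array reached the lowest Col array, which was replicate 4. WES1 fell by 1.52 ± 0.224, or 2.87-fold (adjusted p = 1.57e-04), and kept its call without any single array and under each of the 11 other settings. GH3.3, a second enzyme of the family, ranged from 5.92 to 6.75 with a median of 6.53 in the mutant and from 7.2 to 8.76 with a median of 8.01 in Col. It fell by 1.63 ± 0.383 with no overlap of the groups (adjusted p = 0.0298). The GH3.3 call was lost without any 1 of Col replicates 1, 2 and 5 or pif4 pil5 replicates 3, 5 and 6, with an adjusted p of up to 0.0879.

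HAT2, a homeodomain-leucine zipper factor induced by auxin and by shade, lay between 6.05 and 6.47 in the mutant, with a median of 6.23. In Col it lay between 6.71 and 8.46, with a median of 7.81. The lowest Col array was again replicate 4, and the groups did not overlap. HAT2 fell by 1.48 ± 0.265 (adjusted p = 0.00285), and the call held without each array. AT1G69570, which encodes a Dof zinc finger factor, fell by 1.27 ± 0.276 (adjusted p = 0.0186), from a Col range of 4.48 to 5.91 to a range of 3.52 to 4.11. Its call was lost without Col replicate 1, Col replicate 5 or pif4 pil5 replicate 1, with an adjusted p of up to 0.0696.

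**Figure D2:**
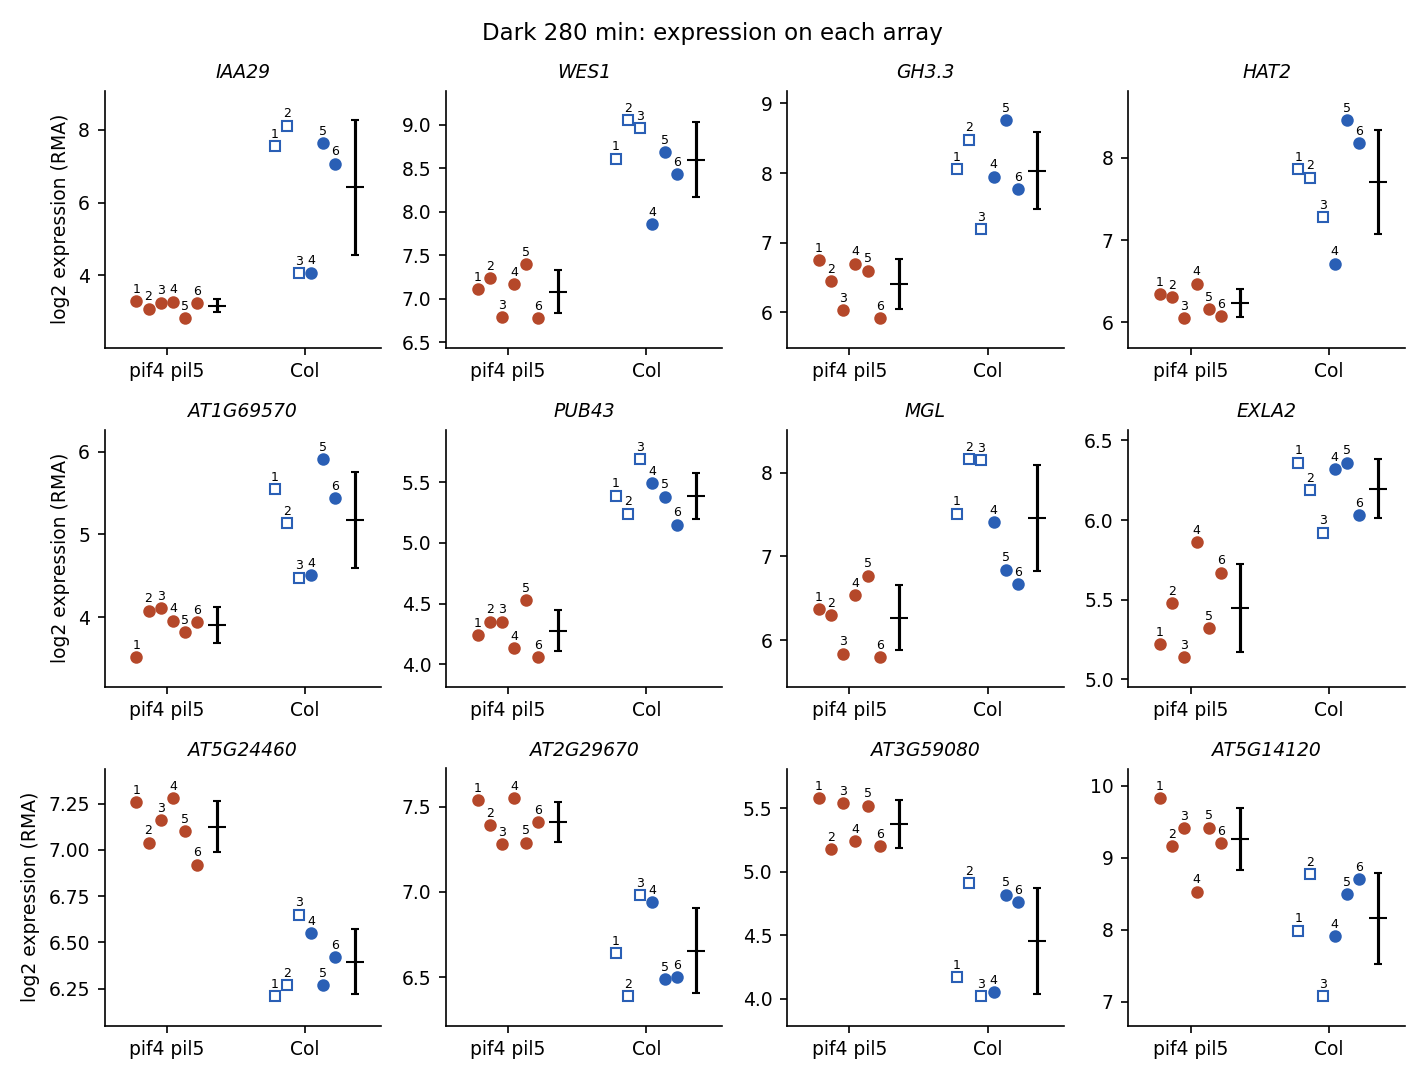
Log2 expression on each of the 6 arrays of pif4 pil5 (red) and of Col (blue) at dark 280 min for 12 genes, numbered by replicate, with the mean ± SD in black. Open squares are Col arrays of the first campaign. IAA29 lies between 2.83 and 3.29 on every mutant array, and Col replicates 3 and 4 lie at 4.07 and 4.08, below the other Col arrays.

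Of 26 shade and PIF target genes of the list found in RefSeq, 8 had a named probe set. Of these 8, 5 fell and none rose, beside 0.404% of all probe sets that fell. The lists here and below were written with earlier results of these data known, so their shares are description only. The median log2 change of the list was -1.02, beside 0.03 over all probe sets. The 5 were IAA29, GH3.3, HAT2, AT1G69570 and BIM1, a bHLH factor that partners with the brassinosteroid regulators BES1 and BZR1. BIM1 fell by 0.78 ± 0.152 (adjusted p = 0.00735), and it is named here after its value was seen. Its groups overlapped. The BIM1 call was lost with only the groups compared (adjusted p = 0.153) and with the second campaign alone (adjusted p = 0.208). FHL, a factor that carries phytochrome A into the nucleus, had a change of -0.55 ± 0.233 that did not pass (adjusted p = 0.269). XTH33, a wall-modifying enzyme, and SPT, a bHLH factor, had changes of -0.45 and 0.21 that did not pass either.

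The other auxin genes with a name did not pass the test, but most members of these lists had no name. Named were 7 of 32 Aux/IAA genes, 5 of 11 GH3 enzymes and 4 of 34 genes of auxin synthesis, transport and response. None of the 80 genes of a further list, the SAUR genes, had a name. Members without a name were not assessed by gene. Of the 7 named Aux/IAA genes only IAA29 fell (all probe sets 0.404%), and their median was -0.16. IAA34 had a change of -0.55 ± 0.238 (adjusted p = 0.271) and IAA20 one of -0.46 ± 0.320 (adjusted p = 0.523). Of 5 GH3 enzymes, WES1 and GH3.3 fell and none rose, with a list median of -0.50, beside 0.404% of all probe sets that fell and their median of 0.03. None of 4 genes of auxin synthesis, transport and response passed, among them YUC2, a flavin monooxygenase of auxin synthesis, with a change of -0.44 ± 0.189 (adjusted p = 0.276), and LBD16, an auxin-induced factor of root branching, with -0.43 ± 0.236 (adjusted p = 0.396).

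A U-box gene separated the lines with little spread. PUB43, which encodes a ubiquitin ligase of the plant U-box family, ranged from 4.06 to 4.53 with a median of 4.29 in pif4 pil5 and from 5.15 to 5.69 with a median of 5.38 in Col. Every mutant array lay below every Col array. PUB43 fell by 1.11 ± 0.115, or 2.16-fold (adjusted p = 3.38e-08), and kept its call in every setting run. Its mean in the other 8 groups of the study stayed between 5.19 and 5.47. Of 9 U-box genes with a name, out of 23 in the list, it was the only one to pass (all probe sets 0.607%). The median of the 9 was -0.16, beside 0.03 over all probe sets. PUB19 had a change of the same size with a wider spread, -1.11 ± 0.369 (adjusted p = 0.152), and PUB25 one of -0.53 ± 0.219 (adjusted p = 0.255).

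The unnamed probe set 251497_at had the largest fall of all. It lay between 2.78 and 3.29 in the mutant and between 5.76 and 8.37 in Col. The lowest Col array, replicate 4, was still well above the mutant. The fall was 4.29 ± 0.310 (adjusted p = 5.89e-13), a fitted ratio of 19.6 with the same limit as for IAA29, since the mutant level was as low. Its means in the other 8 groups lay between 5.38 and 8.24. The probe sets numbered just before and after it carry AT3G59040 and AT3G59070, which lie on either side of PIL6 (PIF5). Numbering alone does not assign a gene. With no gene assigned, whether 251497_at measures a gene mutated in the line or another gene was not tested. The next unnamed fall, 250012_x_at, was 1.95 ± 0.434 (adjusted p = 0.0212), and that call was lost without Col replicate 1 or 2, with an adjusted p of up to 0.0813.

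The lists held 71 expansin and XTH genes and 138 other cell wall genes found in RefSeq, of which 29 and 14 had a name. Of those with a name, only EXLA2 passed the test. EXLA2, an expansin-like protein, ranged from 5.14 to 5.86 in pif4 pil5 and from 5.92 to 6.36 in Col, with no overlap. It fell by 0.75 ± 0.182 (adjusted p = 0.0398). It was the only one of 29 expansin and XTH genes to pass (all probe sets 0.607%), and the list median was 0.01, beside 0.03 over all probe sets. EXPA8, an expansin, had a change of -0.96 ± 0.469 (adjusted p = 0.338), and EXPA16 had the opposite sign at 1.15 ± 0.452 (adjusted p = 0.224). The EXLA2 call was lost without any 1 of 7 of the 12 arrays, namely Col replicates 1, 2 and 5 and pif4 pil5 replicates 1, 2, 3 and 5, with an adjusted p of up to 0.113.

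A pair of pectin enzymes outside the naming rule, chosen after their values were seen, also fell. AT3G49220, a pectin methylesterase, ranged from 8.18 to 8.47 with a median of 8.30 in the mutant and from 8.77 to 9.18 with a median of 9.07 in Col. Its groups did not overlap, and the fall of 0.70 ± 0.119 kept its call in every setting run (adjusted p = 0.00152). AT5G48900, a pectate lyase, fell by 0.73 ± 0.182 (adjusted p = 0.0467). On Col replicate 3 it was at 7.90, below every mutant array, and without that array its adjusted p was 0.00134. Its call was lost without any 1 of 10 of the 12 arrays, all but Col replicates 3 and 4, with an adjusted p of up to 0.15. None of the 14 other wall genes with a name in the lists passed, and their median was -0.23. ATPMEPCRD, a pectin methylesterase, had a change of -1.47 ± 0.559 (adjusted p = 0.211), and CSLC04, a synthase of the xyloglucan backbone, one of -0.80 ± 0.246 (adjusted p = 0.119).

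Among genes of metabolism and signalling, MGL, the methionine gamma-lyase that breaks down methionine, fell by 1.19 ± 0.200 (adjusted p = 0.00152). It ranged from 5.8 to 6.77 in the mutant and from 6.67 to 8.16 in Col. The groups overlapped at Col replicate 6, and the Col arrays of the first campaign were the 3 highest. The call held without each array but was lost with the second campaign alone (adjusted p = 0.292). BRH1, a brassinosteroid-responsive RING-H2 protein, fell by 0.89 ± 0.186 (adjusted p = 0.0122), and its call was lost without Col replicate 2 (adjusted p = 0.0572). AT4G23050, a protein kinase with a PAS domain, fell by 0.90 ± 0.168 (adjusted p = 0.00427), with Col replicate 4 at 5.34 far below the other Col arrays. The AT4G23050 call was lost with only the groups compared (adjusted p = 0.156) and with the second campaign alone (adjusted p = 0.249).

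Further genes fell by 2-fold or more. AT1G12080 fell by 1.84 ± 0.395 (adjusted p = 0.0161), from a Col range of 5.91 to 8.16 to a range of 4.32 to 5.34, with no overlap. AT4G35720 fell by 1.71 ± 0.374 (adjusted p = 0.019), and AT5G50335 by 1.43 ± 0.335 (adjusted p = 0.0284). In all of these, Col replicate 3 was the lowest Col array, and the calls were lost without Col replicate 1 or Col replicate 2. The adjusted p reached 0.0843 for AT1G12080, also without pif4 pil5 replicate 5, and 0.0856 for AT4G35720. For AT5G50335 it reached 0.118, and that call was also lost without Col replicate 6 or pif4 pil5 replicates 2 or 5.

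P1R3 fell by 1.34 ± 0.334 (adjusted p = 0.0464) and AT5G01790 by 1.23 ± 0.299 (adjusted p = 0.0399). AT1G65920, whose product carries an RCC1 domain, fell by 1.02 ± 0.226 (adjusted p = 0.0212). These 3 calls were among the least stable. P1R3 kept its call without only 2 of the 12 arrays, Col replicates 3 and 4, AT5G01790 without 6 of them, all but Col replicates 1 to 3 and pif4 pil5 replicates 2, 3 and 6, and AT1G65920 without 7 of them, all but Col replicates 1, 2 and 5 and pif4 pil5 replicates 1 and 5. Their adjusted p reached 0.149, 0.114 and 0.0758. AT5G01790 was also lost without Col replicates 3 and 4 together, with an adjusted p of 0.0874.

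The remaining falls named by rule were smaller than 2-fold. They were AT5G06930, AT3G13980, AT4G16670, AT3G50340, AT5G51670, AT3G54510, AT3G55840 and iqd32, a calmodulin-binding IQ-domain protein, with AT4G23050 and BRH1 above. Their log2 changes lay between -0.97 and -0.87. Only AT5G51670 of these 8 kept its call without each array, at -0.94 ± 0.165 (adjusted p = 0.00213), with mutant arrays between 2.94 and 3.67 and Col arrays between 3.79 and 4.68. The other 7 calls were each lost without Col replicate 1 and without Col replicate 2, all but that of AT5G06930 also without further arrays, and their adjusted p reached between 0.0696 and 0.156. Without both Col replicates 3 and 4, each of the 8 had an adjusted p of 0.035 or less.

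The rises were smaller and closer to the threshold. AT5G24460 ranged from 6.92 to 7.28 with a median of 7.13 in pif4 pil5 and from 6.21 to 6.65 with a median of 6.35 in Col. The groups did not overlap, and Col replicate 3 was the highest Col array. AT5G24460 rose by 0.73 ± 0.156, or 1.66-fold (adjusted p = 0.0149). Of the 46 rises it was the only one that passed with the second campaign alone (adjusted p = 0.00954), and its call was lost without Col replicate 1 (adjusted p = 0.0576).

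AT5G14120, a membrane transporter of the major facilitator family, ranged from 8.53 to 9.83 in the mutant and from 7.08 to 8.77 in Col. The groups overlapped at the lowest mutant array, replicate 4. It rose by 1.1 ± 0.267 (adjusted p = 0.0394). AT1G70820, a phosphoglucomutase-like protein, rose by 1.04 ± 0.239 (adjusted p = 0.0258), from a Col range of 5.54 to 7.14 to one of 6.86 to 7.73. Both were lowest on Col replicate 3. AT5G14120 lost its call without any 1 of Col replicates 1 and 3 and pif4 pil5 replicates 1, 2, 3, 5 and 6, with an adjusted p of up to 0.137, and AT1G70820 without any 1 of Col replicates 1, 2 and 3 and pif4 pil5 replicates 1 and 3, with one of up to 0.077. Without Col replicates 3 and 4 together neither passed, at adjusted p of 0.129 and 0.108.

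AT5G50450 rose by 0.92 ± 0.193 (adjusted p = 0.0136), from a Col range of 4.86 to 5.32 to a range of 5.34 to 6.80, with the highest value on pif4 pil5 replicate 1. Without that array its adjusted p was 0.0597. AT3G59080, an aspartyl protease, rose by 0.92 ± 0.218 with no overlap (adjusted p = 0.0306), from 4.02 to 4.91 in Col to 5.18 to 5.58 in the mutant. Its call was lost without any 1 of Col replicates 1 and 3 and pif4 pil5 replicates 1, 3 and 5, with an adjusted p of up to 0.105, and without Col replicates 3 and 4 together (adjusted p = 0.103). AT2G29670 was between 7.28 and 7.55 in the mutant and between 6.39 and 6.98 in Col, with no overlap. It rose by 0.75 ± 0.191 (adjusted p = 0.0486), and that call held only without Col replicate 3 or 4 among the 12 arrays left out in turn, reaching 0.127 otherwise.

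AT5G03130 and AT4G15690, a member of the glutaredoxin family, kept their calls without each array. They rose by 0.87 ± 0.159 (adjusted p = 0.00408) and 0.72 ± 0.142 (adjusted p = 0.00771). Both were dim, with Col medians of 2.37 and 2.04, and AT5G03130 was lowest in the mutant on the day 4 arrays, at 2.60 and 2.56, against at least 3.01 on the others. AT3G11110, AT1G19740, AT5G08340 and VPS9B, a relative of an activator of Rab GTPases, rose by 0.61 to 0.68 on the log2 scale. Each of these 4 lost its call without Col replicate 1, and their adjusted p without 1 array reached between 0.0573 and 0.156. AT5G08340 did not pass without Col replicates 3 and 4 together either (adjusted p = 0.0515).

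The unnamed probe set 250351_at had the largest rise among those that passed, 2.09 ± 0.482 (adjusted p = 0.0253). It lay between 4.33 and 6.18 in pif4 pil5. Col replicate 5 was at 6.02, in the mutant's range, and the other Col arrays lay between 1.97 and 2.92. Its call was lost without any 1 of Col replicates 1, 2 and 3 and pif4 pil5 replicates 1 and 4, with an adjusted p of up to 0.0948. The next unnamed rise, 245448_at, was 0.94 ± 0.202 (adjusted p = 0.016), and was lost without Col replicate 1 or pif4 pil5 replicate 1 (adjusted p of up to 0.0576).

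The differences held their direction from day to day. All 92 falls were negative and all 46 rises positive on each of the 3 days, although the same arrays had chosen them. The median of the falls was -0.83 on day 4, -1.05 on day 5 and -0.90 on day 6, and that of the rises was 0.55, 0.51 and 0.56. WES1 was lower by 1.1 on day 4, 1.54 on day 5 and 1.92 on day 6, each ± 0.409 (SE) from 2 arrays per line. For IAA29 the daily changes were -2.53, -4.91 and -2.33, each ± 1.24, and days 4 and 6 held the low Col replicates 4 and 3.

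No probe set passed an adjusted p of 0.05 for the change of the difference from day 4 to day 6 by limma (0.0%). At an unadjusted p under 0.05 stood 1193 probe sets, 5.24% of those tested, and 9 of the 138 called ones. The smallest adjusted p was 0.15. Leaving out Col replicate 6 gave 170 calls, with a single Col array on day 6, replicate 3, that is assumed to vary like the other groups. Leaving out Col replicate 2, 4 or 5 gave 1 call each, and leaving out pif4 pil5 replicate 4 gave 2.

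**Figure D3:**
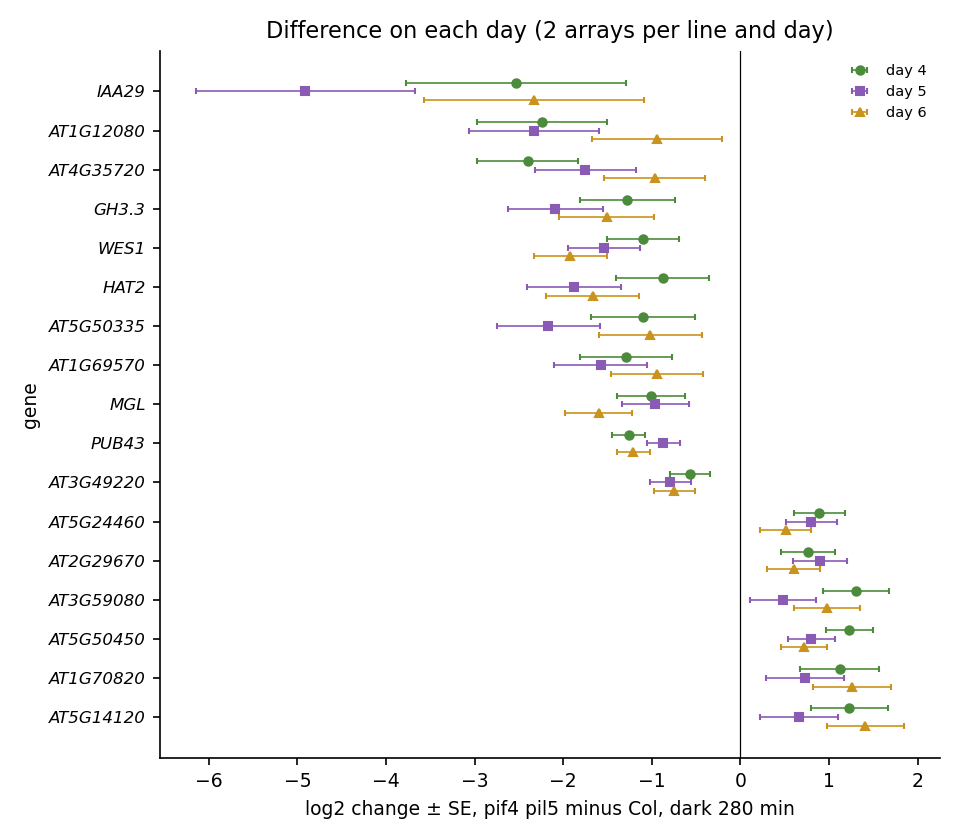
Log2 change ± SE, pif4 pil5 minus Col at dark 280 min, on days 4, 5 and 6 after germination for 17 genes, from 2 arrays per line and day. Every change keeps its side of 0 on the 3 days, from -4.91 for IAA29 on day 5 to 1.41 for AT5G14120 on day 6.

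A second dark comparison of a growing and a non-growing group shared no array with this one. In the dark 1240 min after dawn, the line labelled CCA1OX, named for the clock factor CCA1, was labelled growing (5 arrays) and Col was not (5 arrays). CCA1OX minus Col gave 141 calls there (0.62%), 132 of them higher (0.58%) and 9 lower (0.0396%). Of the 92 probe sets that were lower in pif4 pil5, 35 were higher in CCA1OX (38.0%), which is 26.5% of the 132, and none was lower. The 35 include the unnamed 251497_at, higher in CCA1OX by 2.3, for which a mutated gene was not excluded. The change was positive at 83 of the 92, with a median of 0.66, beside a median of -0.01 over all probe sets.

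The genes called in both comparisons included the auxin and shade genes above. IAA29 was higher in CCA1OX by 3.61 (adjusted p = 0.0072), AT4G35720 by 2.72 (5.34e-05) and the Dof gene AT1G69570 by 2.55 (1.06e-06). WES1 was higher by 1.74 (adjusted p = 1.71e-05), HAT2 by 1.21 (adjusted p = 0.0269), BIM1 by 0.77 (adjusted p = 0.00907), MGL by 1.22 (adjusted p = 9.57e-04) and BRH1 by 1.02 (adjusted p = 0.00384). Of the 5 shade and PIF target genes that fell in pif4 pil5, 4 were higher in CCA1OX, and the change of GH3.3 was 1.04 (adjusted p = 0.51). FHL, which had not passed in pif4 pil5, was higher in CCA1OX by 1.06 (adjusted p = 0.0295).

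EXLA2 (0.80, adjusted p = 0.0405) and AT5G48900 (0.81, adjusted p = 0.0346) were higher in CCA1OX as well. So were 3 genes chosen after their values were seen, AT4G27280, an EF-hand calcium-binding protein, by 1.22, AT4G25280 by 0.64 and AT3G16800, a protein phosphatase of type 2C, by 1.54. In pif4 pil5 they had fallen by 0.81 ± 0.179 (adjusted p = 0.0212), 0.77 ± 0.125 (adjusted p = 9.11e-04) and 0.75 ± 0.190 (adjusted p = 0.0486). Col replicate 1 ended the call of AT4G27280 when left out, as did pif4 pil5 replicate 6, with an adjusted p of up to 0.0576. With the second campaign alone AT4G27280 (adjusted p = 0.114) and AT4G25280 (adjusted p = 0.102) were lost. AT4G25280 was also lost with only the groups compared (adjusted p = 0.102). AT3G16800 lost its call without any 1 of Col replicates 1, 2, 3, 5 and 6 and pif4 pil5 replicates 1, 4 and 6, with an adjusted p of up to 0.189.

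PUB43, AT4G23050 and iqd32 did not follow this pattern. Their changes in CCA1OX minus Col at 1240 min were 0.00, -0.12 and 0.12, and none passed. Of the 46 rises, none was higher in CCA1OX at 1240 min and 1 was lower, AT5G24460 by 0.74 (adjusted p = 0.0189).

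**Figure D4:**
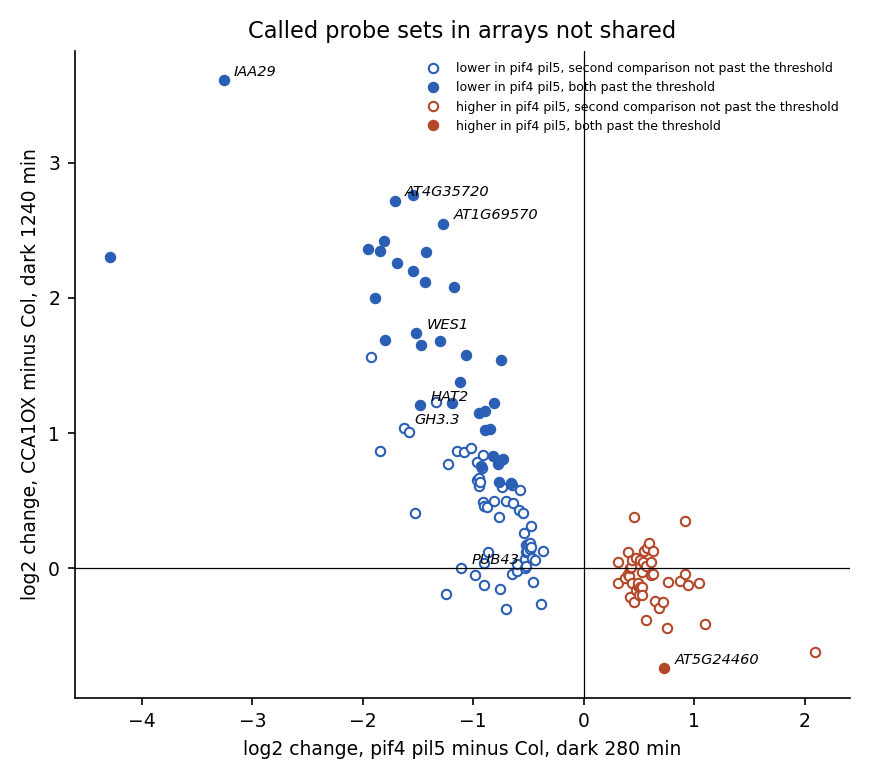
The 138 called probe sets, with the log2 change of pif4 pil5 minus Col at dark 280 min on the x axis and of CCA1OX minus Col at dark 1240 min, from other arrays, on the y axis. Filled points passed the threshold in both, and 35 of the 92 falls lie there in the upper left, whereas PUB43 lies at 0.00 on the y axis.

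The overlap moved with the arrays used. With the 45 arrays left after removing those whose light-induced genes went against their labels, 64 of 145 falls (44.1%) were higher in CCA1OX, which is 33.3% of 192. With the second campaign alone the figures were 19 of 42 (45.2%) and 20.9% of 91, and with the array date as a block 46 of 111 (41.4%) and 19.2% of 239. Without Col replicates 3 and 4 they were 56 of 292 (19.2%) and 42.4% of 132. No probe set was lower in both comparisons with all arrays or in the first 3 of these settings.

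The mutant was also set beside a dark group of Col labelled not growing, at 1240 min, and beside CCA1OX at 280 min, labelled growing. Both comparisons use the same 6 pif4 pil5 arrays as above, so the values are given side by side only. Against Col at 1240 min, 97 probe sets passed (0.426%), and 12 of the 92 falls were lower again (all probe sets 0.215%), with a median change of -0.37, and 10 of the 46 rises were higher (all probe sets 0.211%), with a median of 0.35. Against CCA1OX at 280 min, 1975 probe sets passed (8.68%), and 83 of the 92 falls were lower (all probe sets 4.12%), with a median of -1.04, and 33 of the 46 rises were higher (all probe sets 4.56%), with a median of 0.42.

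Single genes differed in these values. WES1 in pif4 pil5 was 0.26 below Col at 1240 min (adjusted p = 0.605) and 1.71 below CCA1OX at 280 min (adjusted p = 2.38e-06). The change of IAA29 against Col at 1240 min was -1.55 (adjusted p = 0.283), and that against CCA1OX at 280 min was -4.26 (adjusted p = 7.71e-05). GH3.3 differed from Col at 1240 min by 0.49 (adjusted p = 0.556) and from CCA1OX at 280 min by -0.37 (adjusted p = 0.595). Its mean in Col at 280 min, 8.04 ± 0.55 (SD, n = 6), was the highest of the 9 groups.

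PUB43 was lower in pif4 pil5 than in both groups, by 0.91 (adjusted p = 5.08e-05) and by 1.05 (adjusted p = 6.23e-08). AT4G23050 was lower by 1.01 (adjusted p = 0.00242) and 0.90 (adjusted p = 4.7e-04), and iqd32 by 0.97 (adjusted p = 0.0188) and 0.73 (adjusted p = 0.0162). AT2G29670 was higher in pif4 pil5 than in both, by 0.98 (adjusted p = 0.0146) and 1.38 (adjusted p = 7.26e-06). The mean of pif4 pil5 lay below those of all other 8 groups at 76 of the 92 falls (16.1% of all probe sets) and above them at all 46 rises (27.7% of all probe sets).

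**Figure D5:**
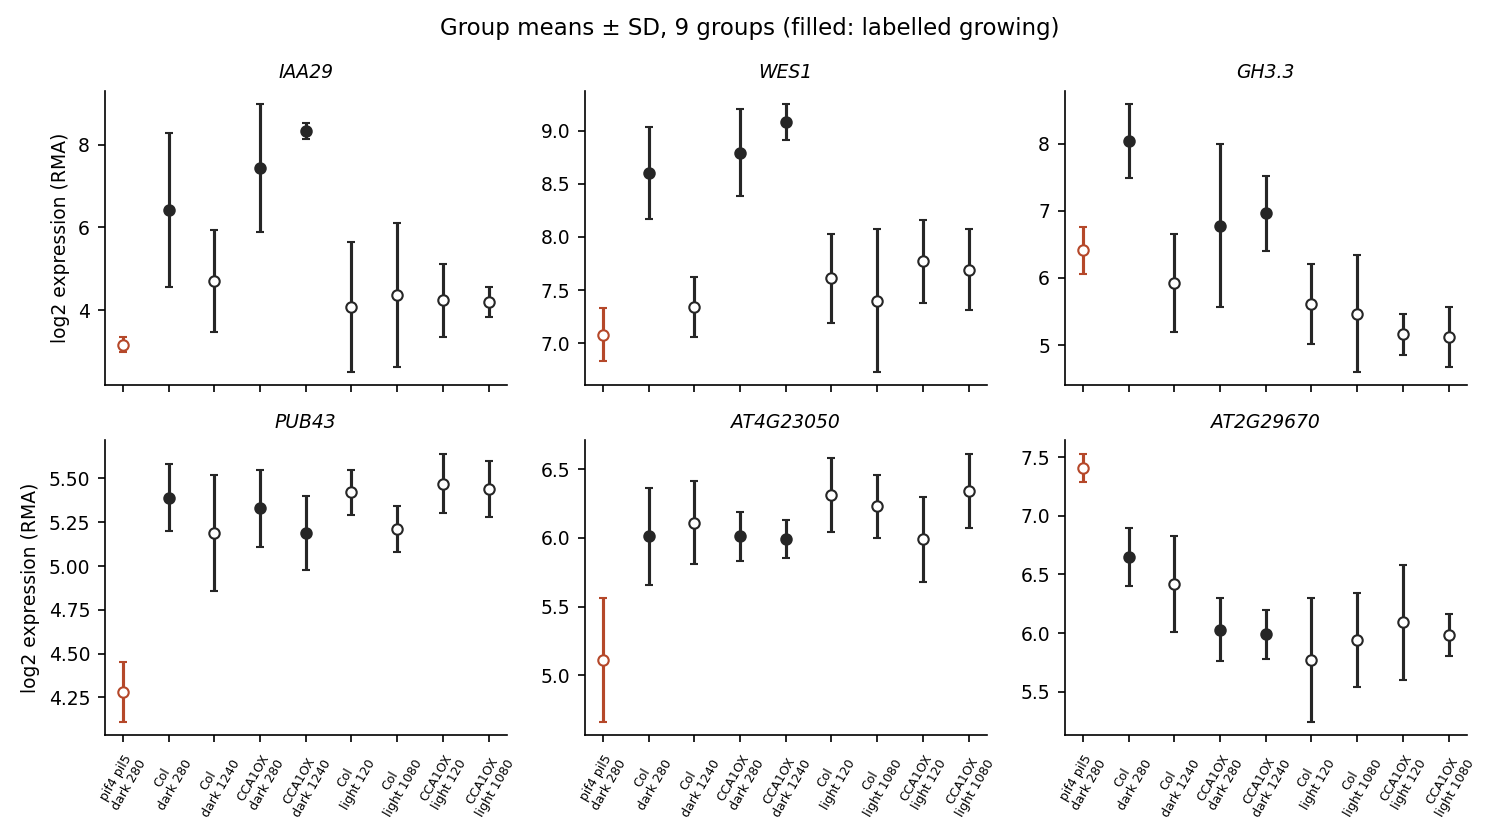
Mean ± SD of log2 expression in the 9 groups (5 or 6 arrays each) for 6 genes, pif4 pil5 in red, with filled points for groups labelled growing. WES1 and IAA29 are high in the 3 growing groups, PUB43 and AT4G23050 are lower in pif4 pil5 than in every other group, and AT2G29670 is higher.

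No named gene in the lists of other pathways passed the test. Of 27 lists, 23 had a named probe set, 18 of these held no probe set past the threshold, and their medians are set against 0.03 over all probe sets. The 4 lists without a named probe set were those of SAUR, brassinosteroid, BBX zinc finger and abscisic acid genes. In the other lists most members had no name either. Named were 4 of 25 gibberellin, 2 of 22 ethylene, 2 of 25 cytokinin and 4 of 30 clock genes found in RefSeq. Members without a name were not assessed by gene. The 4 gibberellin genes had a median of 0.10, with the receptors GID1A at 0.25 ± 0.115 (adjusted p = 0.314) and GID1B at 0.18 ± 0.179 (adjusted p = 0.682). The 2 ethylene genes had a median of -0.51, with ARL, a regulator of organ growth, at -0.64 ± 0.417 (adjusted p = 0.492) and EIN3, the transcription factor of ethylene signalling, at -0.37 ± 0.172 (adjusted p = 0.313). The 2 cytokinin response regulators ARR15 and RR16 were at 0.29 ± 0.165 (adjusted p = 0.413) and 0.18 ± 0.245 (adjusted p = 0.775), and the bHLH factor ALC at 0.22 ± 0.192 (adjusted p = 0.628).

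The clock gene GI differed widely by day in both lines. The 4 light signalling genes had a median of 0.20, and AT3G44450 had a change of 0.80 ± 0.378 (adjusted p = 0.317). GI, an evening gene of the clock, was at 8.05 and 7.50 on the day 4 arrays of the mutant and at 7.09 and 6.51 on those of Col. On the later days it lay between 3.46 and 4.74 in the mutant and between 3.85 and 5.05 in Col, except on Col replicate 3, where it was 8.24. Its change was -0.50 ± 0.595 (adjusted p = 0.742), and that of COR27, a clock and cold gene, was 0.73 ± 0.514 (adjusted p = 0.533). The 5 cold-regulated genes had a median of -0.20, with COR47, a dehydrin, at -0.66 ± 0.251 (adjusted p = 0.212).

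The 6 light-harvesting and Rubisco genes had a median of 0.15, with LHCB4.3 at 0.46 ± 0.486 (adjusted p = 0.699) and LHCB4.2 at 0.27 ± 0.218 (adjusted p = 0.599). The 6 chlorophyll synthesis genes had a median of 0.29, with CHLM at 0.47 ± 0.166 (adjusted p = 0.175) and CHLI2 at 0.53 ± 0.309 (adjusted p = 0.434). The 5 flavonoid genes had a median of 0.38, with DFR, an enzyme of anthocyanin synthesis, at 1.05 ± 0.723 (adjusted p = 0.523) and UGT78D2 at 0.45 ± 0.497 (adjusted p = 0.716). The 10 starvation genes had a median of 0.07, with SAG29 at -0.70 ± 0.494 (adjusted p = 0.535) and AKINBETA1, a subunit of the SnRK1 kinase, at 0.54 ± 0.420 (adjusted p = 0.579). PDF1.2, a defensin of the jasmonate response, was at 0.17 ± 0.119 (adjusted p = 0.513).

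Leaf markers were well above the floor of the arrays, whereas root markers lay lower, in part below the median level of all probe sets, 4.699. The array means of the leaf markers RCA and SBPASE lay between 11.14 and 11.77 in pif4 pil5 and between 10.04 and 11.82 in Col, lowest on Col replicate 4. Those of the root hair expansins EXPA7 and EXPA18 lay between 4.38 and 6.45 and between 5.57 and 6.59, with changes of -0.44 ± 0.353 (adjusted p = 0.588) and -0.59 ± 0.354 (adjusted p = 0.445). The flower and pollen markers were near the floor, between 2.59 and 2.75 and between 2.68 and 2.86, and the seed storage gene PAP85 lay between 2.31 and 3.82 and between 2.16 and 3.08. The part of these markers in the calls was not tested.

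The calls depended on the Col arrays used and on how the spread was estimated. With 1 array left out in turn, the count of calls ran from 43 without Col replicate 1 to 633 without Col replicate 4. It was 59 without Col replicate 2, 70 without pif4 pil5 replicate 1 and 76 without pif4 pil5 replicate 5. Of the falls 32 of 92, and of the rises 5 of 46, kept the call without each of the 12 arrays. With array date as a block 60 falls and 18 rises were still called, and with the second campaign alone, which leaves 3 Col arrays, 31 and 1. With only the groups compared, 16 falls and 2 rises were still called. The fall or rise kept its direction at all 138 under each of these settings, but they refit arrays that had chosen the calls. With only the groups compared, the log2 changes are those of the main fit by construction. In all, 11 probe sets, all of them falls, kept the call without each array and in every other setting run. With a name these were WES1, HAT2, PUB43 and AT3G49220.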

How the data were processed

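RNA of pooled seedlings was hybridised to Affymetrix ATH1 arrays. Values were used on the log2 scale as the authors deposited them. They come from RMA in the affy package, per the submitters' processing notes; versions are not given in the sources used here. RMA corrects background, normalises arrays to 1 distribution and summarises probes, which compresses differences between dim probe sets. Precision is set by how many arrays a group has.

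Of 22810 probe sets, 64 AFFX controls were left out. The platform table named a single gene for 13513 of the others, several for 503 and none for 8730, and symbols were updated through RefSeq (TAIR10.1). Unnamed probe sets stayed in all tests. Promoter sequences were not analysed here.

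A linear model with a mean for each of 9 groups was fitted to all 48 arrays in limma 3.58.1 (R 4.3.3) and left 39 residual degrees of freedom and a median residual SD 0.244. Contrasts were tested two-sided and adjusted by Benjamini-Hochberg over 22746 probe sets at 0.05, and days were compared with a mean per group and day. The test was tried on simulated data. Named are called genes changed at least 2-fold, the next 10 in each direction, up to 4 called members of each of 27 lists (2 uncalled ones where fewer than 2 were called) and 2 unnamed probe sets in each direction. The comparison, the lists and this rule were chosen with earlier results of these data known. Other settings were 3 block designs, the second campaign alone, 45 arrays, only the groups compared, array weights, removal of dim probe sets, median centring, repeated quantile normalization, each array left out in turn and, added after seeing the data, Col replicates 3 and 4 left out.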

Additional observations from a re-analysis of the deposited data

Results flagged for a closer look

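Among 170 groups of 6 arrays (85 genes or unnamed probe sets given in the text, in both lines), 19 held an array far from the other 5. About 1 in 20 would be flagged among independent, normally distributed values. The genes share the same arrays, so flags on 1 array are not independent. Of the 19 arrays so far out, 8 were Col replicate 4, 5 were pif4 pil5 replicate 4, and 3 each were Col replicates 3 and 5. Both replicates 4 were sampled on day 4 and carry the title number 2.

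On Col replicate 4, low values were found for RCA (10.96), LHCB4.2 (10.01) and SBPASE (9.13), all photosynthesis genes, and for EIN3 (7.02), AT4G23050 (5.34) and PUB25 (3.69), while COR27 (4.38) and ARR15 (3.49) were high. Without this array the main comparison gave 633 calls in place of 138. On Col replicate 3, AT5G48900 (7.90) and CSLC04 (7.01) were low and ALC (5.27) was high. On Col replicate 5, 250351_at (6.02), LHCB4.3 (7.49) and PAP85 (3.08) were high.

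On pif4 pil5 replicate 4, AT4G35720 (4.07) and AGL104 (2.03) were high, and AKINBETA1 (6.69), GID1B (4.99) and ATPMEPCRD (4.37) were low. For AT4G35720 the high mutant array still lay above only Col replicate 3, at 3.84. What sets these arrays apart was not tested.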

How the results depend on the processing

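No called gene changed direction under any setting run, which was largely given in advance, since the settings refit arrays that had chosen the calls. Only the groups compared, the replicate block and the blocks of day and title number left the log2 changes as in the main fit. The main count of 138 (92 lower) became 553 (363 lower) with array weights, 642 (329 lower) with day and title number as blocks, 416 (292 lower) without Col replicates 3 and 4, 21 (18 lower) with only the groups compared and 43 (42 lower) with the second campaign alone, and ran from 43 to 633 with 1 array left out. With the replicate block (the title number, 1 or 2) it was 357 (203 lower), and all 138 kept their calls. The numbers were not taken to pair the lines: residuals of a mutant and a Col array of the same day and number correlated by -0.136 to 0.646 (median 0.174, 6 pairs), and those of the same day and different numbers by 0.165 to 0.496 (median 0.309). Those of different days had medians of -0.148 with the same number and -0.183 with different numbers. Arrays of the same day were thus more alike across the lines, and the main test had no term for day. The cause of the shifts in the counts was not tested.

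For CCA1OX minus Col at 1240 min, 141 became 261 with the date block, 615 with weights, 265 with day and title blocks and 281 with only the groups compared (106 to 151 with 1 array left out). For pif4 pil5 minus Col at 1240 min, 97 became 168 with 45 arrays, 285 with the date block, 434 with weights, 1056 with day and title blocks, 26 with only the groups compared, 245 with the replicate block and 11 with the second campaign (16 without pif4 pil5 replicate 1 to 391 without pif4 pil5 replicate 3). For pif4 pil5 minus CCA1OX at 280 min, 1975 became 3074 with weights, 3658 with day and title blocks and 955 with the second campaign (1266 without pif4 pil5 replicate 1 to 2021), and the 1037 higher and 938 lower calls became 1361 and 812 with median centring. For the change from day 4 to day 6, 0 became 1 with 45 arrays and 13 with the second campaign (0 to 170). Blocks of day and title number were not planned there, since day is part of the cells compared.

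Limits: the mutant has 1 array date and Col 5, so line and date are separated mainly through the other groups, and only Col replicate 6 shares the mutant's date. The Col group holds 2 arrays that stand apart and 3 from the second campaign.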

Other observations

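Along the chromosomes of the RefSeq assembly TAIR10.1, AT3G59080, which rose by 0.92 ± 0.218, lies 2 coding genes from PIL6, the RefSeq symbol of PIF5. No other named gene within 10 coding genes of PIF4, PIL5 or PIL6 passed the test. ATPMEPCRD, at -1.47 ± 0.559 (adjusted p = 0.211), lies 4 coding genes from PIF4. These positions were looked up after the values were seen.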
